A study of Mus musculus with 12 samples.

Results

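Expression of 10 genes of fatty acid uptake and its regulation was followed across 12 mouse liver RNA-seq libraries. The 10 genes, Cd36, Lpl, Vldlr, Fabp1, Fabp2, Slc27a2, Slc27a4, Slc27a5, Pparg and Mogat1, were taken by symbol from the 22381 genes with values. All 10 had values and all 10 passed the filter on low values. The livers came from female C57BL/6 mice, and 4 groups of 3 libraries were compared. The first group, the curcumin livers, came from mice on a high fat high sugar (HFHS) diet of 14 weeks that also received liposomes carrying curcumin, a plant polyphenol. The second, the calcitriol livers, came from mice on that diet that received liposomes carrying calcitriol, the active hormone form of vitamin D. Both kinds of liposome were given intravenously, once in week 12 and once in week 13, and the tissue was collected 2 weeks after injections began. The third group, the HFHS livers, carries that diet and no injection in its labels, and the fourth is titled CNT. Since the label text on diet is identical for CNT and the other libraries, the feature that distinguishes CNT is not stated beyond its title. Livers given empty liposomes were not analysed here, so the agents and their liposomes cannot be told apart, and neither age nor the number of animals per library is given.

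Long-chain fatty acids reach hepatocytes as free acids from adipose tissue and from triglyceride-rich lipoproteins that lipases cleave at the vessel wall. CD36 and the SLC27 transport proteins promote their entry at the membrane, fatty acid binding proteins carry them through the cytosol, and attachment of coenzyme A traps them for oxidation or for storage as triglyceride. PPARG is a nuclear receptor that binds fatty acids and pairs with a retinoid X receptor on DNA. It is best known as the master regulator of fat cells, is low in healthy liver, and is known to drive genes of fat storage, CD36 among them, in fatty mouse liver.

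The values were the log2 expression values that the authors deposited, whose depth is unknown. The libraries carried liver markers throughout. The log2 of the summed level of 8 hepatocyte markers ran from 20.8 to 21.1 in curcumin livers, from 20.2 to 20.8 in calcitriol livers, from 20.6 to 20.9 in HFHS livers and from 20.8 to 21.1 in CNT livers. HFHS replicates 1 and 3 stood apart from the other 10 libraries, at 32.8 and 28.4 on the first principal component, while the others lay between -14.4 and -0.40. HFHS replicate 3 also carried the highest summed level of 8 adipocyte markers, 9.42 on the log2 scale, against 5.96 to 7.01 in the 11 other libraries. Of 6 enterocyte markers, Lgals4 alone reached the expression threshold, a log2 value of 3.32, and Si was at 0 in all libraries. None of 5 skeletal muscle markers reached it, and Myh4 and Ckm were at 0 in all libraries. Replicates are libraries with separate titles, and nothing states that they came from separate animals, so the p-values measure the spread between libraries only.

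The 10 genes differed widely in level. Levels were divided by the joined length of all annotated exons of a gene, which can exceed the length of its main transcript. Their mean log2 level per kilobase over the 12 libraries was highest for Fabp1 (16.61), followed by Slc27a2 (12.67), Slc27a5 (12.59), Fabp2 (10.65) and Cd36 (9.84). The lower levels per kilobase belonged to Slc27a4 (7.14), Pparg (6.24), Lpl (5.39), Vldlr (4.45) and Mogat1 (4.03). The order of Pparg and Lpl depended on this division by 2953 and 10478 bases, since the undivided mean was 7.80 for Pparg and 8.78 for Lpl. Slc27a2 and Slc27a5 were neighbours within less than the range of either gene over the libraries, 0.73 and 1.11 on the log2 scale. Lpl varied the most, with 2.74 between its lowest and highest library, and Slc27a4 the least, with 0.31.

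Promoter windows are shown for 4 of the genes, because textbook accounts place Cd36, Fabp1, Fabp2 and Mogat1 downstream of PPAR factors and Pparg is the one nuclear receptor among the 10. Each window holds the 250 bases before a start site that RefSeq gives on GRCm38.p6, printed on the strand of the gene. Capitals mark the 13 bases closest to the binding sequence of PPAR and retinoid X receptor pairs, AGGTCANAGGTCA, searched on both strands and allowing overlap with any other motif.
Cd36 (chr5:17835897-17836146, minus strand): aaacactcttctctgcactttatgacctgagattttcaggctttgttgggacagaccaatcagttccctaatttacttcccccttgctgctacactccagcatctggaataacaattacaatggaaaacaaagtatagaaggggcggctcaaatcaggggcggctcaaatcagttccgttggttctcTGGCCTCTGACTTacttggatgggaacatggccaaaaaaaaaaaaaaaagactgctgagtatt
Fabp1 (chr6:71199629-71199878, plus strand): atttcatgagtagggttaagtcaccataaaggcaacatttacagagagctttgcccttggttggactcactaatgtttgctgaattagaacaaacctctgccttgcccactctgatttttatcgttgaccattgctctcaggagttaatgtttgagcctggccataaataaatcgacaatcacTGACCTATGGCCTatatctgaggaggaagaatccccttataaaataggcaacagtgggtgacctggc
Fabp2 (chr3:122894822-122895071, plus strand): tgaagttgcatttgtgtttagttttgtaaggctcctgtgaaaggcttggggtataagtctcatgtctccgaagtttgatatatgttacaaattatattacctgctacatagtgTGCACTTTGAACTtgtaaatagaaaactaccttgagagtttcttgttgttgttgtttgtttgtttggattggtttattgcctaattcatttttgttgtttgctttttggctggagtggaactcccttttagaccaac
Mogat1 (chr1:78510810-78511059, plus strand): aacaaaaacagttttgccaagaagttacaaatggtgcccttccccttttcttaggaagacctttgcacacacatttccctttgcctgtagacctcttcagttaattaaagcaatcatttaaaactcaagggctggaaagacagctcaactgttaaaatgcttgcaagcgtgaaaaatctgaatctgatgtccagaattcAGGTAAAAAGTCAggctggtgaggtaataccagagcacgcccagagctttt
The closest stretch differed from the 12 fixed letters at 1 position in Fabp1, on the opposite strand, 67 to 55 bases before the start. It differed at 2 positions in Cd36, on the opposite strand 63 to 51 bases before the start, and at 2 in Mogat1, on the same strand 51 to 39 bases before the start. In Fabp2 it differed at 3 positions. Searched over the same 250 bases, 0.484% of all 32851 mouse windows held a stretch with at most 1 difference, 3.24% one with at most 2 and 21.3% one with at most 3. Windows were at hand for 8 of the 10 genes. In the windows of the other 4, the closest stretch differed at 3 positions in Slc27a2, at 4 in each of the 3 starts of Pparg, at 4 or 5 in the 2 starts of Vldlr, and at 5 in Slc27a4.

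In HFHS livers against CNT livers, Cd36, Lpl, Fabp2 and Pparg rose and Slc27a5 fell. Thus 5 of the 10 genes passed the threshold, an adjusted p under 0.05, where 11.9% of all 12637 tested genes did, 6.55% rising and 5.36% falling. The groups did not overlap for 7 of the 10, against 26.9% of all tested genes. The median log2 change of the 10 genes was 0.56, with 8 above 0, beside -0.01 over all tested genes. Changes and p-values came from limma with Benjamini-Hochberg adjustment over all tested genes, and errors on a change are standard errors. The comparisons of curcumin and of calcitriol livers with HFHS livers share the HFHS libraries with this one, so their values are given side by side and no likeness between them is drawn. In bulk tissue, fewer cells of a type and less RNA per cell cannot be told apart.

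**Figure D1:**
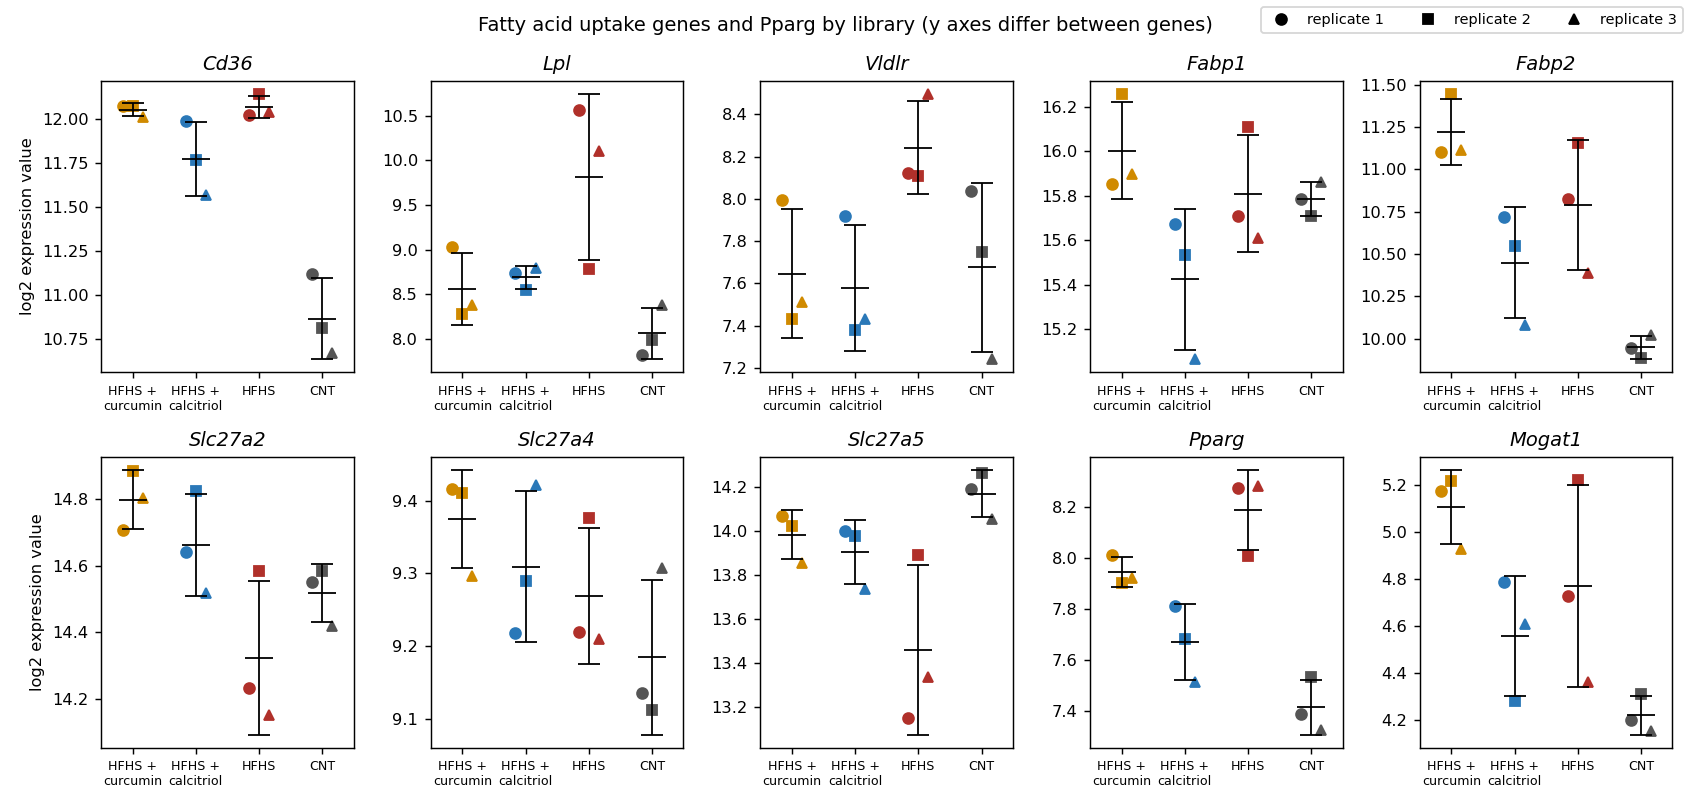
Log2 expression value of each of the 10 genes (vertical axes, which differ between genes) in the 12 libraries of the 4 groups (horizontal axes), with 1 mark per library shaped by replicate number and black bars for the mean and SD. Cd36 lay at 11.57 or above in all 9 HFHS-titled libraries and at 11.12 or below in the 3 CNT libraries, and HFHS replicates 1 and 3 carried the highest Lpl and the lowest Slc27a5 values.

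Cd36 encodes a scavenger receptor and fatty acid translocase of the plasma membrane (ENSMUSG00000002944, GRCm38 chromosome 5, 17781690 to 17888801, minus strand). Its log2 values were 12.07, 12.07 and 12.01 in curcumin livers, 11.99, 11.76 and 11.57 in calcitriol livers, 12.02, 12.14 and 12.04 in HFHS livers, and 11.12, 10.81 and 10.67 in CNT livers. All 9 libraries of the HFHS diet titles lay above all 3 CNT libraries, and calcitriol livers lay below HFHS livers with no overlap. Cd36 rose by 1.20 ± 0.12 in HFHS livers over CNT livers (adjusted p = 0.000871), which is 2.30-fold. It also rose in curcumin livers, by 1.18 ± 0.12 over CNT livers (adjusted p = 0.000748), and in calcitriol livers, by 0.91 ± 0.12 over CNT livers (adjusted p = 0.0046). The change in curcumin livers over HFHS livers was -0.02 ± 0.12, with a 95% interval from -0.28 to 0.25 (adjusted p = 0.953). Calcitriol livers over HFHS livers gave -0.29 ± 0.12 (adjusted p = 0.198). Among the 10 genes, Cd36 was the one that passed in all 3 comparisons with CNT livers, and it did so under each of the 19 alternatives. The genes whose centred values lay closest to those of Cd36 were Bhlhb9 and Tlr12, with root mean square differences of 0.18 and 0.19 on the log2 scale over the 12 libraries, beside 0.51 for the deviation of Cd36 itself.

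Lpl encodes lipoprotein lipase, the enzyme that frees fatty acids from circulating triglyceride, which adult hepatocytes make little of (ENSMUSG00000015568, GRCm38 chromosome 8, 68880491 to 68907448, plus strand). Log2 values of Lpl were 9.03, 8.28 and 8.38 in curcumin livers, 8.74, 8.54 and 8.79 in calcitriol livers, 10.56, 8.78 and 10.10 in HFHS livers, and 7.82, 7.99 and 8.38 in CNT livers. HFHS replicates 1 and 3 were the highest of the 12 libraries, whereas HFHS replicate 2 lay within the range of both injected groups. Lpl rose by 1.75 ± 0.38 in HFHS livers over CNT livers (adjusted p = 0.0236). The change in curcumin livers over HFHS livers was -1.25 ± 0.38 (adjusted p = 0.105) and calcitriol livers over HFHS livers gave -1.12 ± 0.38 (adjusted p = 0.132). Without HFHS replicates 1 and 3 the change over CNT livers was 0.72 (adjusted p = 0.396). It missed the threshold without HFHS replicate 1, HFHS replicate 3, CNT replicate 1 or CNT replicate 2 as well, at adjusted p of 0.086, 0.0867, 0.0658 and 0.0788 within a range of 0.000174 to 0.396 over the alternatives.

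Markers of other liver cells were set beside Lpl. The log2 of the summed level of 8 stellate cell and fibroblast markers was 12.87, 12.79 and 12.78 in curcumin livers, 12.76, 12.66 and 12.67 in calcitriol livers, 13.66, 12.66 and 13.54 in HFHS livers, and 12.65, 12.38 and 12.44 in CNT livers. It was highest in the same 2 HFHS libraries. The log2 of the summed level of 10 macrophage markers was 13.10, 12.78 and 12.79 in curcumin livers, 13.07, 13.01 and 13.36 in calcitriol livers, 13.45, 12.91 and 12.79 in HFHS livers, and 12.80, 12.39 and 12.62 in CNT livers. These macrophage sums did not follow Lpl library by library, since HFHS replicate 3 had the lowest of its group and calcitriol replicate 3 one of the highest of all. Single markers of the list differed. Gpnmb (8.62 and 7.15), Itgax (6.84 and 7.32) and Trem2 (6.22 and 5.82) were highest in HFHS replicates 1 and 3, as Lpl was. Clec4f and Vsig4 were highest in calcitriol replicate 3, and no other marker of the list had its highest values in both of those HFHS libraries. The log2 of the summed level of 5 cholangiocyte markers was also highest in HFHS replicates 1 and 3, at 11.78 and 10.77, against 9.48 to 10.53 in the 10 other libraries. In HFHS livers over CNT livers, 4 of 8 stellate markers and 4 of 10 macrophage markers rose, with none falling, where 11.9% of all tested genes passed. All 18 reached the expression threshold in every group. The part of these cells, and of the adipocyte markers in HFHS replicate 3, in the Lpl values was not tested.

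**Figure D2:**
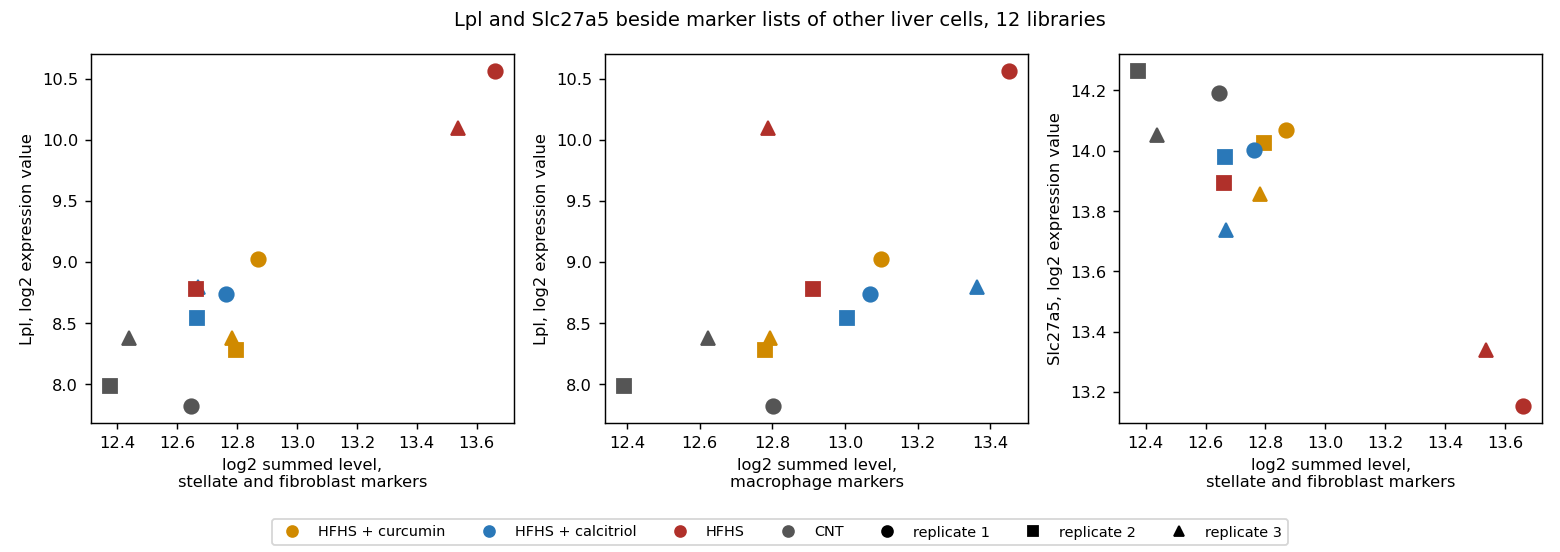
Log2 values of Lpl and Slc27a5 (vertical axes) against the log2 summed level of marker lists of other liver cells (horizontal axes), 1 mark per library, coloured by group. HFHS replicates 1 and 3 lie at the high end of the stellate cell and fibroblast sums, at 13.66 and 13.54, with the highest Lpl values and the lowest Slc27a5 values.

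Vldlr encodes the very low density lipoprotein receptor, which docks triglyceride-rich particles (ENSMUSG00000024924, GRCm38 chromosome 19, 27216484 to 27254231, plus strand). Log2 values of Vldlr were 7.99, 7.43 and 7.51 in curcumin livers, 7.92, 7.38 and 7.43 in calcitriol livers, 8.12, 8.11 and 8.50 in HFHS livers, and 8.04, 7.75 and 7.24 in CNT livers. HFHS livers lay above each of the other groups with no overlap, though HFHS replicate 2 and curcumin or CNT replicate 1 lay close together. None of the differences passed. The log2 changes were 0.57 ± 0.22 in HFHS livers over CNT livers (adjusted p = 0.107), -0.60 ± 0.22 in curcumin livers over HFHS livers (adjusted p = 0.137) and -0.67 ± 0.22 in calcitriol livers over HFHS livers (adjusted p = 0.118).

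Around these genes, 15 others of lipoprotein triglyceride breakdown and its control were tested. In HFHS livers over CNT livers none rose and 2 fell, where 11.9% of all tested genes passed, and the median log2 change was -0.22. The 2 were Angptl8, a secreted protein that takes part in restraining lipoprotein lipase, at -0.97 ± 0.21 (adjusted p = 0.0214), and Apoc3, an apolipoprotein that restrains the enzyme as well, at -0.57 ± 0.14 (adjusted p = 0.0279). Without HFHS replicates 1 and 3, none of the 15 passed. Both calls also ended without HFHS replicate 1, HFHS replicate 3 or CNT replicate 1 alone, and that of Apoc3 without CNT replicate 2 or CNT replicate 3 (adjusted p 0.0532 to 0.105 in those fits, and up to 0.504 over all alternatives). Under quantile normalization Apoc3 was at -0.23 (adjusted p = 0.102). In curcumin livers and in calcitriol livers over HFHS livers none of the 15 passed, with 4 and 2 at an unadjusted p under 0.05 (24.7% and 21.3% of all tested genes) and median log2 changes of 0.08 and 0.10.

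Fabp1 encodes the liver fatty acid binding protein, an abundant cytosolic carrier of hepatocytes (ENSMUSG00000054422, GRCm38 chromosome 6, 71199827 to 71205023, plus strand). Its log2 values were 15.85, 16.26 and 15.90 in curcumin livers, 15.67, 15.53 and 15.07 in calcitriol livers, 15.71, 16.11 and 15.61 in HFHS livers, and 15.79, 15.71 and 15.86 in CNT livers. Calcitriol livers lay below curcumin livers and below CNT livers with no overlap, and calcitriol replicate 3 was the lowest of the 12. That library also had the lowest summed level of hepatocyte markers, 20.20 on the log2 scale. Single markers differed, with Alb and Apoa1 lowest there and Apob and Hnf4a not. The part of this in the Fabp1 values was not tested. No difference passed: HFHS livers over CNT livers gave 0.03 ± 0.19 (adjusted p = 0.938), curcumin livers over HFHS livers 0.19 ± 0.19 (adjusted p = 0.535) and calcitriol livers over HFHS livers -0.39 ± 0.19 (adjusted p = 0.255). The sign of the first turned without HFHS replicate 2 (-0.13) or CNT replicate 2 (-0.01), and that of the curcumin value without HFHS replicates 1 and 3 (-0.11) and under quantile normalization (-0.15). Under quantile normalization the calcitriol value passed, at -0.68 (adjusted p = 0.0355, within 0.0355 to 0.6 over the alternatives).

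Fabp2 encodes the binding protein of intestinal type, whose main site is the enterocyte (ENSMUSG00000023057, GRCm38 chromosome 3, 122895072 to 122899506, plus strand). Log2 values of Fabp2 were 11.10, 11.44 and 11.12 in curcumin livers, 10.72, 10.54 and 10.08 in calcitriol livers, 10.83, 11.15 and 10.39 in HFHS livers, and 9.94, 9.88 and 10.02 in CNT livers. All 9 HFHS-titled libraries lay above all 3 CNT libraries, and all 3 curcumin libraries above all 3 calcitriol libraries. Fabp2 rose by 0.84 ± 0.19 in HFHS livers over CNT livers (adjusted p = 0.0236) and by 1.27 ± 0.19 in curcumin livers over CNT livers (adjusted p = 0.00638). Calcitriol livers over CNT livers gave 0.50 ± 0.19 (adjusted p = 0.15). Curcumin livers over HFHS livers gave 0.43 ± 0.19 (adjusted p = 0.192) and calcitriol livers over HFHS livers -0.34 ± 0.19 (adjusted p = 0.337). The curcumin rise over CNT livers passed under all 19 alternatives. The HFHS rise missed the threshold without HFHS replicate 1, CNT replicate 1 or CNT replicate 2, at adjusted p of 0.0837, 0.0604 and 0.0821 (range 0.0138 to 0.123). The enterocyte markers Vil1, Cdh17, Alpi and Lct stayed under the expression threshold in every group. Clstn3 and Lamb3 lay closest to Fabp2, with root mean square differences of 0.19 each on the log2 scale, beside 0.52 for Fabp2 itself. The antisense gene 4933405D12Rik overlaps Fabp2 and reached a log2 value of at most 0.03.

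Other genes of uptake and binding were called mainly against CNT livers after injection. Of 16 listed, 15 had values (Fabp6 was at 0) and 11 were tested. In HFHS livers over CNT livers none of the 11 passed, with 4 at an unadjusted p under 0.05 (31.9% of all tested genes) and a median log2 change of 0.01. Fabp4, the binding protein of fat cells, had 1.27 ± 0.52 (adjusted p = 0.127), with HFHS replicate 3 at 9.22, where the 11 other libraries lay between 6.28 and 7.09. In curcumin livers over HFHS livers none passed, with 3 at an unadjusted p under 0.05 (24.7% of all tested genes) and a median of -0.12, and Acsl4, an acyl-CoA synthetase that favours arachidonic acid, had -0.43 ± 0.09 (adjusted p = 0.0533). In calcitriol livers over HFHS livers, where 2.21% of all tested genes passed, Acsl4 alone fell, by 0.47 ± 0.09 on the log2 scale (adjusted p = 0.0341), and the median was -0.32. That call ended without any curcumin or calcitriol library and without HFHS replicate 1 or 3 (adjusted p up to 0.134, and up to 0.38 over all alternatives). In curcumin livers over HFHS livers, Acsl4 passed under 4 of the 19 alternatives. These were the replicate block (adjusted p = 0.0474), quantile normalization (adjusted p = 0.0424), and the fits without HFHS replicate 2 (adjusted p = 0.00432) or CNT replicate 3 (adjusted p = 0.0398).

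Against CNT livers, 1 of the 11 rose and 2 fell in curcumin livers, where 3.51% of all tested genes passed, and 4 fell in calcitriol livers, where 4.04% did. The medians were 0.11 and -0.04, and these genes were named after their values were seen. In curcumin livers Slc27a1, a fatty acid transport protein of muscle and fat, rose by 0.63 ± 0.12 (adjusted p = 0.0201). Acsl3, an acyl-CoA synthetase of lipid droplets, and Fabp5, the epidermal binding protein, fell by 0.42 ± 0.07 (adjusted p = 0.00942) and 1.19 ± 0.28 (adjusted p = 0.0444) on the log2 scale. In calcitriol livers Acsl3, Fabp5, Acsl4 and Dbi, which encodes acyl-CoA binding protein, fell by 0.37 ± 0.07, 1.27 ± 0.28, 0.39 ± 0.09 and 0.55 ± 0.14 on the log2 scale (adjusted p = 0.0194, 0.0358, 0.039 and 0.0471). All 7 calls ended without CNT replicate 2, and all but that of Acsl3 in curcumin livers also without single libraries of the injected group (adjusted p 0.0511 to 0.157 in those fits). With the replicate number as a block, Dbi missed the threshold in calcitriol livers (adjusted p = 0.0527) and Fabp5 missed it in curcumin livers. With only the compared groups in the fit, Fabp5 missed it in curcumin livers and Acsl4 in calcitriol livers. The Fabp5 call in curcumin livers held under 6 of the 19 alternatives. With no low-value filter, Fabp5 missed it in both comparisons and Acsl4 and Dbi in calcitriol livers (adjusted p 0.0526 to 0.118), and under quantile normalization Acsl4 and Dbi did (adjusted p = 0.0767 and 0.0867).

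Slc27a2, Slc27a4 and Slc27a5 encode fatty acid transport proteins that also join fatty acids to coenzyme A, and SLC27A5 of hepatocytes is in addition a bile acid CoA ligase. Slc27a5 (ENSMUSG00000030382, GRCm38 chromosome 7, 12988346 to 12998192, minus strand) had log2 values of 14.07, 14.02 and 13.86 in curcumin livers, 14.00, 13.98 and 13.74 in calcitriol livers, 13.15, 13.89 and 13.34 in HFHS livers, and 14.19, 14.27 and 14.05 in CNT livers. HFHS replicates 1 and 3 were the lowest of the 12 libraries and HFHS replicate 2 lay within the range of both injected groups, while HFHS and CNT livers did not overlap. Slc27a5 fell by 0.71 ± 0.17 on the log2 scale in HFHS livers over CNT livers (adjusted p = 0.0246). Curcumin livers over HFHS livers gave 0.52 ± 0.17 (adjusted p = 0.107) and calcitriol livers over HFHS livers 0.44 ± 0.17 (adjusted p = 0.155). Without HFHS replicates 1 and 3 the first change was -0.28 (adjusted p = 0.521). It also missed the threshold without HFHS replicate 1, HFHS replicate 3, CNT replicate 1 or CNT replicate 2, at adjusted p of 0.0901, 0.089, 0.0637 and 0.0899 (range 0.000196 to 0.521). The stellate and cholangiocyte marker sums given for Lpl were highest in the 2 libraries where Slc27a5 was lowest. All 8 hepatocyte markers were below 0 in HFHS livers over CNT livers, with a median log2 change of -0.28, and 1, Serpina1a, fell (adjusted p = 0.0236). The part of these cell types in the Slc27a5 values was not tested. Ndrg2 and Sult1d1 lay closest to Slc27a5, with root mean square differences of 0.071 and 0.084 on the log2 scale, beside 0.32 for Slc27a5 itself.

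Slc27a2 encodes a transport protein of peroxisomes and endoplasmic reticulum that activates very long chain fatty acids (ENSMUSG00000027359, GRCm38 chromosome 2, 126552407 to 126588243, plus strand). Its log2 values were 14.71, 14.89 and 14.80 in curcumin livers, 14.64, 14.83 and 14.52 in calcitriol livers, 14.23, 14.59 and 14.15 in HFHS livers, and 14.55, 14.58 and 14.42 in CNT livers. All 3 curcumin libraries lay above all 6 HFHS and CNT libraries, and HFHS replicates 1 and 3 were the lowest of the 12. Curcumin livers over HFHS livers gave 0.48 ± 0.13 (adjusted p = 0.0839), and with the replicate number as a block this passed (adjusted p = 0.0486). Calcitriol livers over HFHS livers gave 0.34 ± 0.13 (adjusted p = 0.176) and HFHS livers over CNT livers -0.19 ± 0.13 (adjusted p = 0.338). The HFHS value turned in sign without HFHS replicates 1 and 3 (0.067) and under quantile normalization (0.14), and passed without HFHS replicate 2 (-0.33, adjusted p = 0.0447, range 0.0447 to 0.914).

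Slc27a4, the transport protein of intestine and many other tissues, was the steadiest of the 10 (ENSMUSG00000059316, GRCm38 chromosome 2, 29802634 to 29817522, plus strand). Log2 values of Slc27a4 were 9.42, 9.41 and 9.30 in curcumin livers, 9.22, 9.29 and 9.42 in calcitriol livers, 9.22, 9.38 and 9.21 in HFHS livers, and 9.13, 9.11 and 9.31 in CNT livers. All 4 groups overlapped. HFHS livers over CNT livers gave 0.08 ± 0.08, with a 95% interval from -0.09 to 0.25 (adjusted p = 0.483). The change in curcumin livers over HFHS livers was 0.11 ± 0.08 (adjusted p = 0.414) and calcitriol livers over HFHS livers 0.04 ± 0.08 (adjusted p = 0.81).

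Pparg encodes the receptor itself (ENSMUSG00000000440, GRCm38 chromosome 6, 115360951 to 115490399, plus strand). Its log2 values were 8.01, 7.90 and 7.92 in curcumin livers, 7.81, 7.68 and 7.51 in calcitriol livers, 8.27, 8.01 and 8.28 in HFHS livers, and 7.39, 7.53 and 7.32 in CNT livers. HFHS and curcumin livers lay above CNT livers with no overlap, calcitriol livers lay below both of those groups with no overlap, and calcitriol replicate 3 fell within the range of CNT livers. Pparg rose by 0.77 ± 0.10 in HFHS livers over CNT livers (adjusted p = 0.00282) and by 0.53 ± 0.10 in curcumin livers over CNT livers (adjusted p = 0.0151). Calcitriol livers over CNT livers gave 0.25 ± 0.10 (adjusted p = 0.146).

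Against HFHS livers, Pparg fell by 0.52 ± 0.10 on the log2 scale in calcitriol livers (adjusted p = 0.0297). It was the 1 gene of the 10 to pass in that comparison, where 2.21% of all tested genes did, 0.973% rising and 1.23% falling, and 3 of the 10 did not overlap, against 24.4% of all tested genes. The highest Pparg values stood in HFHS replicates 1 and 3, the libraries that stood apart. Markers of other cells moved in this comparison too. All 8 stellate cell and fibroblast markers and all 5 cholangiocyte markers were below 0, each list with a median log2 change of -0.56, and Des fell (adjusted p = 0.0455). The 3 adipocyte markers tested were also below 0, with a median of -0.80, and none passed. Of 8 endothelial markers, 7 were above 0 and Clec4g rose (adjusted p = 0.038). Of 10 macrophage markers, 4 were above 0 and 6 below. The part of these cells in the Pparg values was not tested. Curcumin livers over HFHS livers gave -0.24 ± 0.10 (adjusted p = 0.158). The calcitriol fall missed the threshold without curcumin replicate 2 or 3, calcitriol replicate 2 or 3, or HFHS replicate 1 or 3, at adjusted p of 0.0513, 0.0535, 0.114, 0.126, 0.103 and 0.0791 (range 0.00128 to 0.399). The rise of curcumin over CNT livers missed it without any curcumin library or CNT replicate 1, at adjusted p of 0.064, 0.0556, 0.0505 and 0.0528 (range 0.00527 to 0.064), and that of HFHS over CNT livers without HFHS replicates 1 and 3 (0.59, adjusted p = 0.0845, range 9.02e-05 to 0.0845). Ermp1 and Myadm lay closest to Pparg, with root mean square differences of 0.082 and 0.10 on the log2 scale, beside 0.31 for Pparg itself.

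Mogat1 encodes monoacylglycerol acyltransferase 1, which makes diacylglycerol for storage and is a known PPARG target in fatty mouse liver (ENSMUSG00000012187, GRCm38 chromosome 1, 78510991 to 78538173, plus strand). It was the lowest of the 10 per kilobase. Its log2 values were 5.18, 5.22 and 4.93 in curcumin livers, 4.79, 4.28 and 4.61 in calcitriol livers, 4.73, 5.22 and 4.36 in HFHS livers, and 4.20, 4.31 and 4.15 in CNT livers. Curcumin livers lay above calcitriol and CNT livers with no overlap, and HFHS replicate 3 lay just above the CNT libraries. Mogat1 rose by 0.89 ± 0.19 in curcumin livers over CNT livers (adjusted p = 0.0277). HFHS livers over CNT livers gave 0.55 ± 0.19 (adjusted p = 0.0732), which passed without HFHS replicate 3 (0.75, adjusted p = 0.0471, range 0.0309 to 0.276). The change in curcumin livers over HFHS livers was 0.34 ± 0.19 (adjusted p = 0.282) and calcitriol livers over HFHS livers -0.21 ± 0.19 (adjusted p = 0.561), and each of these signs turned when HFHS libraries were left out. The curcumin rise over CNT livers missed the threshold without any curcumin library, CNT replicate 1 or CNT replicate 2, at adjusted p of 0.0967, 0.12, 0.0566, 0.0901 and 0.0822 (range 0.00104 to 0.12), and under quantile normalization (0.83, adjusted p = 0.0663). Det1 and Slc39a5 lay closest to Mogat1, with root mean square differences of 0.17 and 0.18 on the log2 scale, beside 0.39 for Mogat1 itself. The gene BC035947 overlaps Mogat1 on the other strand and reached a log2 value of at most 0.05.

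**Figure D3:**
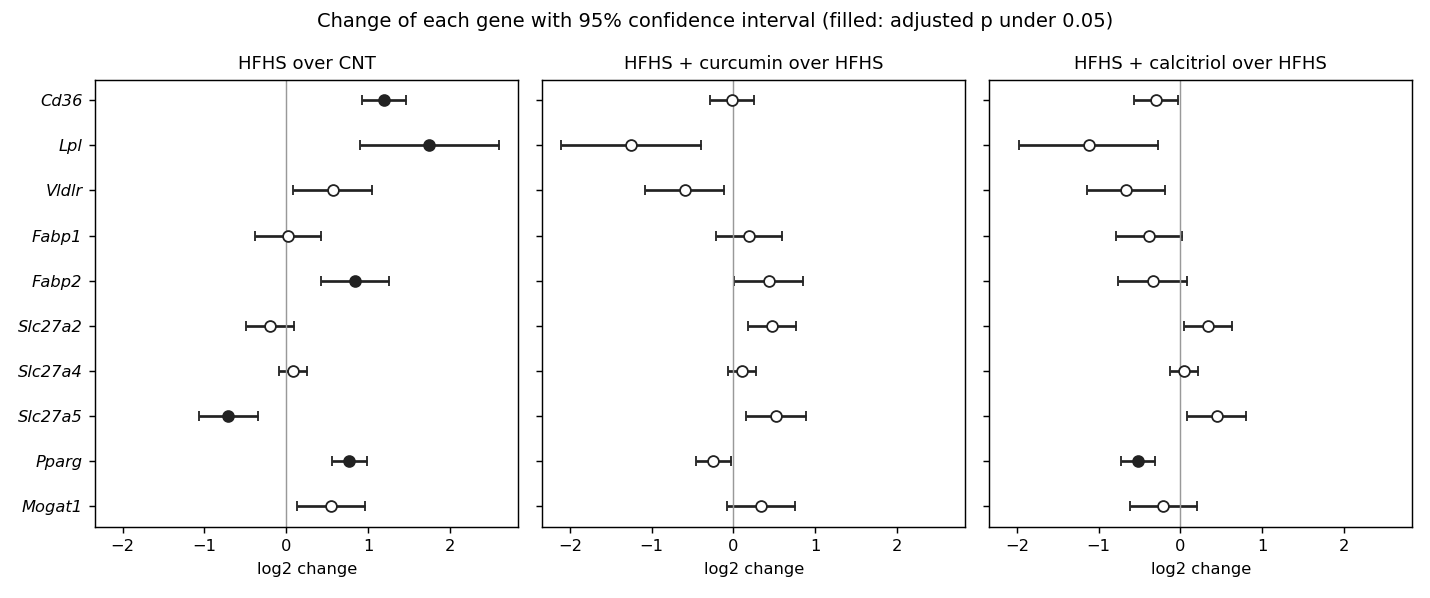
Log2 change (horizontal axes) of each of the 10 genes (vertical axis) in HFHS livers over CNT livers and in curcumin and calcitriol livers over HFHS livers (panels), with 95% confidence intervals as bars and filled marks for an adjusted p under 0.05. Filled marks stand at Cd36, Lpl, Fabp2, Pparg and Slc27a5 in HFHS livers over CNT livers and at Pparg in calcitriol livers over HFHS livers.

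PPARG works with partner proteins, and 18 of 19 listed partners, coregulators and upstream factors were tested. In HFHS livers over CNT livers 2 rose and 1 fell, where 11.9% of all tested genes passed, and the median log2 change was -0.13. Rxrg, a retinoid X receptor, and Cebpd, a factor acting upstream of Pparg in fat cells, rose by 0.42 ± 0.11 (adjusted p = 0.0308) and 0.53 ± 0.14 (adjusted p = 0.0345), and Cebpa, a factor of hepatocytes and fat cells, fell by 0.45 ± 0.12 on the log2 scale (adjusted p = 0.0361). Without HFHS replicates 1 and 3 none of the 18 passed. Each of the 3 calls ended without HFHS replicate 1, CNT replicate 1 or CNT replicate 2 alone, those of Cebpd and Cebpa also without HFHS replicate 3, CNT replicate 3 or calcitriol replicate 2, and that of Cebpa without curcumin replicate 1 or calcitriol replicate 1 (adjusted p 0.0518 to 0.138 in those fits, and 0.0013 to 0.647 over all alternatives). Quantile normalization ended all 3 calls, with Rxrg at 0.27, Cebpd at 0.37 and Cebpa at -0.22 (adjusted p 0.112 to 0.166). In curcumin livers and in calcitriol livers over HFHS livers none passed, with 4 and 5 at an unadjusted p under 0.05 (24.7% and 21.3% of all tested genes) and medians of 0.09 and 0.17.

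Of 20 listed PPARG targets of fatty liver and fat tissue, which include Cd36, Lpl and Mogat1, 16 were tested. In HFHS livers over CNT livers 5 rose and none fell, where 11.9% of all tested genes passed. Of the 16, 15 were above 0, and the median log2 change was 0.44. Apart from Cd36 and Lpl, the 5 that rose were Cidec and Plin4, proteins of the lipid droplet surface, and Pdk4, a kinase that restrains glucose oxidation and was named after its value was seen. Cidec had log2 values of 6.83, 7.11 and 7.22 in curcumin livers, 6.41, 5.91 and 5.80 in calcitriol livers, 8.35, 6.93 and 7.74 in HFHS livers, and 5.48, 5.42 and 5.21 in CNT livers. All 9 HFHS-titled libraries lay above all CNT libraries, calcitriol livers below both curcumin and HFHS livers, and HFHS replicates 1 and 3 highest. Cidec rose by 2.30 ± 0.29 in HFHS livers over CNT livers (adjusted p = 0.00342), Plin4 by 1.49 ± 0.28 (adjusted p = 0.0148) and Pdk4 by 1.03 ± 0.26 (adjusted p = 0.033). Plin4 missed the threshold without HFHS replicate 1, HFHS replicate 3 or CNT replicate 2 (adjusted p 0.0522 to 0.0577, and up to 0.339 over all alternatives), and Pdk4 without those libraries or CNT replicate 3 (0.072 to 0.136, and up to 0.622).

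Against HFHS livers, none of the 16 targets passed in curcumin livers, with 6 at an unadjusted p under 0.05 (24.7% of all tested genes) and a median log2 change of 0.30. In calcitriol livers, where 2.21% of all tested genes passed, Cidec fell by 1.63 ± 0.29 on the log2 scale (adjusted p = 0.027), none of the others passed, and the median was -0.15. That fall missed the threshold without calcitriol replicate 2 or 3 or HFHS replicate 1 or 3, at adjusted p of 0.114, 0.124, 0.0578 and 0.076 (range 0.000173 to 0.206). Against CNT livers, 6 of the 16 rose in curcumin livers, with a median of 0.68, where 3.51% of all tested genes passed. In calcitriol livers 2, Cd36 and Pdk4, rose, with a median of 0.33, where 4.04% of all tested genes passed. All 16 lay above 0 in both groups. These comparisons and that of HFHS over CNT livers share the CNT libraries, so their signs are not independent. For Angptl4, Acot1 and Fitm2, CNT replicate 3 lay well below the other CNT libraries. It was at 10.03, 8.09 and 9.74, against 11.20, 9.02 and 10.32 in CNT replicate 2. For Lpl, Gpd1 and Hilpda it was the highest CNT library. How far the signs rest on that library was not tested. The calcitriol rise of Pdk4 over CNT livers, 1.34 ± 0.26 (adjusted p = 0.0229), missed the threshold without calcitriol replicate 2, calcitriol replicate 3 or CNT replicate 2 (adjusted p 0.0808 to 0.0938). The curcumin rise of Pdk4 over CNT livers missed it without any 1 curcumin library or CNT replicate 2 (adjusted p up to 0.0936 over the alternatives). With no low-value filter, Pdk4 missed it in both comparisons. The curcumin rise of Cidec over CNT livers missed it without curcumin replicate 2 or 3 or CNT replicate 2 (adjusted p up to 0.0573). The limits of the Mogat1 call are given above, and that of Cd36 held under all 19 alternatives. The median over all tested genes was between -0.011 and 0.0037 in each comparison.

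**Figure D4:**
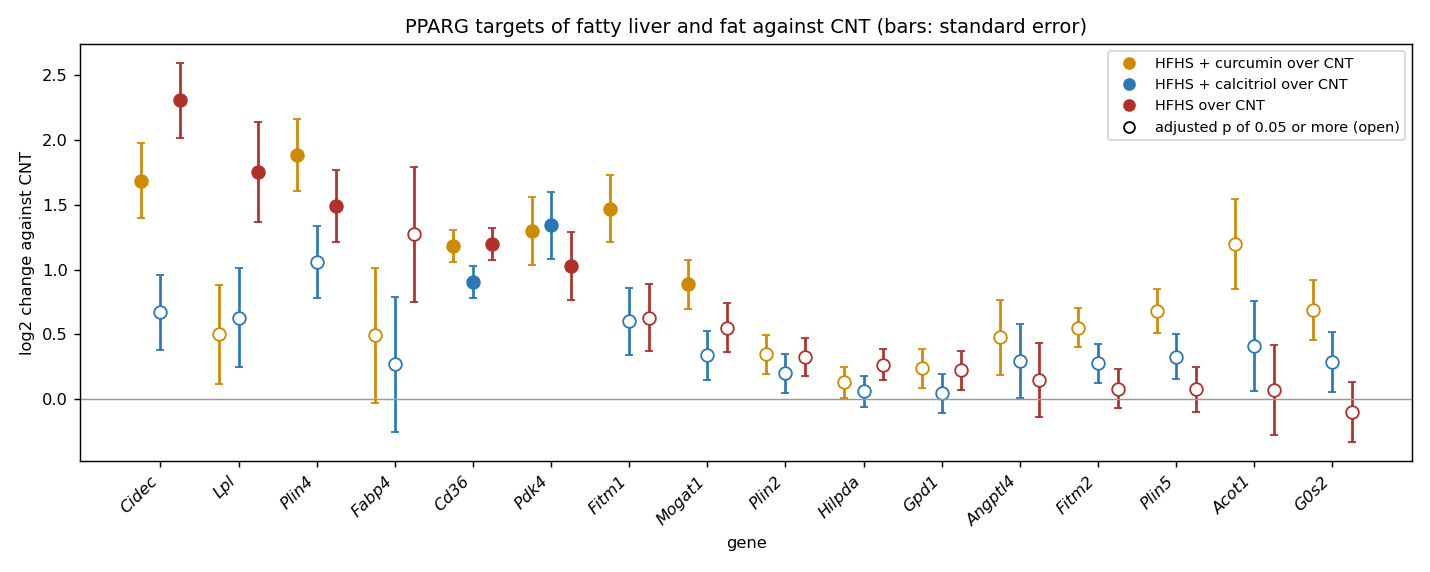
Log2 change against CNT livers (vertical axis) of the 16 tested PPARG targets (horizontal axis) in curcumin, calcitriol and HFHS livers, with standard errors as bars. All 16 lie above 0 in curcumin and in calcitriol livers and 15 of 16 in HFHS livers, and Cidec has the highest change in HFHS livers, 2.30. The same CNT libraries serve all of these comparisons.

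In triglyceride synthesis beyond Mogat1, Gpat3 was the 1 gene called in HFHS, curcumin or calcitriol livers over CNT livers among 12 tested of 13 listed. Of all tested genes, 11.9%, 3.51% and 4.04% passed in those comparisons. Gpat3, a glycerol phosphate acyltransferase, rose by 0.56 ± 0.12 in HFHS livers over CNT livers (adjusted p = 0.0164), and the median log2 change was -0.02. It also rose by 0.91 ± 0.12 in curcumin livers (adjusted p = 0.00216) and by 0.87 ± 0.12 in calcitriol livers (adjusted p = 0.00386) over CNT livers, and both calls held under all 19 alternatives. The HFHS call ended without HFHS replicate 1 (adjusted p = 0.0636) or CNT replicate 2 (adjusted p = 0.0655), within a range of 0.00832 to 0.161. In curcumin livers and in calcitriol livers over HFHS livers none passed, with 5 and 3 at an unadjusted p under 0.05 (24.7% and 21.3% of all tested genes) and medians of 0.16 and -0.0069.

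In curcumin livers over HFHS livers, none of the 10 uptake genes passed by limma, where 0.301% of all tested genes passed. At an unadjusted p under 0.05 there were 6 of the 10, where 24.7% of all tested genes were. Slc27a2 and Vldlr were the 2 of 10 whose groups did not overlap, against 23.6% of all tested genes, and the median log2 change of the 10 was 0.15. In calcitriol livers over HFHS livers the median was -0.32, with 3 above 0 and 7 below. The counts in both comparisons depended on HFHS replicate 2. Without it 6 of the 10 passed in curcumin livers, Slc27a2, Fabp2, Slc27a5 and Mogat1 higher and Lpl and Pparg lower, and 4 passed in calcitriol livers, Slc27a2 and Slc27a5 higher and Lpl and Pparg lower. In those fits 25.4% and 17.4% of all tested genes passed. Against CNT livers, 4 of the 10 rose in curcumin livers (Cd36, Fabp2, Pparg and Mogat1), where 3.51% of all tested genes passed, 1.6% rising and 1.91% falling. In calcitriol livers 1 of the 10, Cd36, rose over CNT livers, where 4.04% of all tested genes passed, 1.77% rising and 2.27% falling. The groups did not overlap for 5 of the 10 in each of these comparisons, against 25.6% of all tested genes for curcumin livers and 32.3% for calcitriol livers.

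Between curcumin and calcitriol livers, no gene passed by limma, neither among the 10 nor among all 12637 tested (0%), and 5 of the 10 had an unadjusted p under 0.05, as did 1873 of all tested genes (14.8%). Curcumin and calcitriol livers did not overlap for 5 of the 10, Cd36, Fabp1, Fabp2, Pparg and Mogat1, each higher in curcumin livers, against 28.7% of all tested genes. Fabp2 averaged 11.22 ± 0.19 in curcumin livers and 10.45 ± 0.33 in calcitriol livers (SD, n = 3 each), a log2 change of 0.77 ± 0.19 (adjusted p = 0.2 by limma). Fabp1 averaged 16.00 ± 0.22 in curcumin livers and 15.42 ± 0.32 in calcitriol livers (SD, n = 3 each), a log2 change of 0.58 ± 0.19 (adjusted p = 0.248 by limma). The changes of Mogat1, Pparg and Cd36 were 0.55 ± 0.19, 0.28 ± 0.10 and 0.28 ± 0.12, at adjusted p of 0.259, 0.264 and 0.327. The median log2 change of the 10 genes was 0.21. Cell markers differed in this comparison too, with none passing. Of 8 hepatocyte markers, 5 were above 0 and 3 below, with a median of 0.21. All 8 endothelial markers were below 0, with a median of -0.46, and 7 of them did not overlap. All 5 cholangiocyte markers were above 0 (median 0.23), as were 6 of 8 stellate and 3 of 10 macrophage markers. The part of these cells in the values of the 10 genes was not tested. The doses of curcumin and calcitriol are not stated in the labels.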

How the data were processed

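The authors deposited 1 table per library with a log2 value for each of 45792 mouse Ensembl genes, of which 22381 had values and 23411 were at exactly 0 throughout. The submitters' processing notes name STAR 2.4.0d, DESeq2 1.8.1 and GRCm38 without roles. The transformation behind the deposited log2 values is not given in the sources used here, and counts and depth are unknown, so no counting error could be set. Values of low genes are drawn together by some such transformations, which would make their changes look smaller. GENCODE M21 supplied gene symbols and positions. Genes at a log2 value of 3.32 (log2 of 10) or more in at least 3 libraries, 12637 in all, entered limma 3.58.1 in R 4.3.3 as 4 group means over the 12 libraries, with empirical Bayes moderation (trend, robust). Tests were two-sided, and p-values were adjusted by Benjamini-Hochberg within each of 6 comparisons. The 10 genes, the lists and the markers were chosen with earlier results of these data known. All 10 genes are named, and from each list at most the 4 with the smallest p in each comparison with HFHS or of HFHS with CNT, with exceptions stated. A listed gene is not reported here and is left out of its list's counts. The steps were tested on simulated data with 200 changed genes. Alternatives left out each library, HFHS replicates 1 and 3, the other groups, the filter, or trend and robust estimation, set a mean filter of 4, used quantile normalization, or added the replicate number as a block. Libraries with the same number deviated together across genes in curcumin and HFHS livers (r 0.16 to 0.321 over the 3 pairs) and in calcitriol and CNT livers (r 0.205 to 0.372). In the other 4 pairs of groups at least 1 correlation of same-numbered libraries was 0.1 or lower, down to -0.383 for replicate 3 of curcumin and CNT livers. Some libraries with different numbers reached values as high, such as curcumin replicate 3 with CNT replicate 1 (r 0.318). Replicate numbers come from the titles, which do not say what they mark.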

Additional observations from a re-analysis of the deposited data

Results flagged for a closer look

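In Fabp2, the binding protein of intestinal type, each curcumin library lay above the mean of the HFHS libraries and each calcitriol library below it. The log2 difference between curcumin and calcitriol livers was 0.77 ± 0.19 (adjusted p = 0.2 by limma with Benjamini-Hochberg adjustment), which did not pass. Fabp1, the liver binding protein, was placed in the same way. Its log2 difference between curcumin and calcitriol livers was 0.58 ± 0.19 (adjusted p = 0.248 by limma), which did not pass either. Calcitriol replicate 3, the library with the lowest Fabp1, also had the lowest summed level of hepatocyte markers, 20.20 on the log2 scale.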

How the results depend on the processing

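The counts of the 10 genes passing moved with single libraries. In HFHS over CNT livers the count was 5, ran from 2 to 6 with 1 library left out, and was 3 without HFHS replicates 1 and 3 and 1 with only the 2 compared groups in the fit. In curcumin over HFHS livers it was 0, ran from 0 to 6 with 1 library left out, and was 1 under the replicate block. In calcitriol over HFHS livers it was 1, ran from 0 to 4 with 1 library left out, and was 0 without HFHS replicates 1 and 3, 2 under quantile normalization and 0 with only the compared groups. In curcumin over CNT livers it was 4 and ran from 2 to 4 with 1 library left out. In calcitriol over CNT livers it was 1, and 2 with only the compared groups. Between curcumin and calcitriol livers it was 0 under all 19 alternatives. The replicate block changed no other call among the 10 genes, while over all genes it took the count in curcumin over HFHS livers to 242, against 38. Under the block, the counts of the 10 genes were 5 in HFHS over CNT livers, 1 in calcitriol over HFHS livers, 4 in curcumin over CNT livers and 0 between curcumin and calcitriol livers. With only the compared groups in the fit, Cd36 alone among the genes named as called in HFHS over CNT livers passed. With no low-value filter, Lpl (adjusted p = 0.0523) and Pdk4 (adjusted p = 0.0739) missed the threshold there. Where HFHS replicates 1 and 3 were left out, the lone HFHS library was assumed to vary like the other groups. Directions turned only for changes that did not pass. With 1 library left out, Fabp1 in HFHS over CNT livers ran from -0.13 (without HFHS replicate 2) to 0.12, and was at -0.01 without CNT replicate 2. Cd36 in curcumin over HFHS livers ran from -0.037 to 0.021, Slc27a4 in calcitriol over HFHS livers from -0.015 to 0.095, and Mogat1 in calcitriol over HFHS livers from -0.41 to 0.015. Without HFHS replicates 1 and 3, Slc27a2 was at 0.067 in HFHS over CNT livers, Slc27a4 at -0.067 in calcitriol over HFHS livers, and Fabp1 at -0.11, Slc27a4 at -0.0020, Mogat1 at -0.11 and Cidec at 0.12 in curcumin over HFHS livers. Under quantile normalization, Slc27a2 was at 0.14 in HFHS over CNT livers and Fabp1 at -0.15 in curcumin over HFHS livers. The cause of these shifts was not tested. Over all tested genes, the number passing was 1505 (13 to 3717 over the alternatives) in HFHS over CNT livers, 38 (0 to 3207) in curcumin over HFHS livers, 279 (0 to 2194) in calcitriol over HFHS livers, 443 (94 to 949) in curcumin over CNT livers, 511 (73 to 1187) in calcitriol over CNT livers and 0 (0 to 214) between curcumin and calcitriol livers. Precision is limited by 3 libraries per group, with a median standard error of a difference of 0.10 on the log2 scale.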
